A study of Mus musculus with 15 samples.

Results

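Oxidative phosphorylation genes were taken from the expression table by gene symbol and described complex by complex. Symbols starting with Ndufa, Ndufb, Ndufc, Ndufs or Ndufv gave complex I, Sdha to Sdhd complex II, Uqcr symbols and Cyc1 complex III, symbols from Cox4 to Cox8 complex IV, and Atp5 symbols complex V, while assembly factors named Ndufaf were left out. Of 87 matching symbols among 23284 entries, 82 had a mean of at least 1 FPKM (fragments per kilobase of transcript, scaled to library size) in at least 1 population: 37 for complex I, 4 for II, 9 for III, 15 for IV and 17 for V. The 5 left out were Cox7b2, Cox8b and Cox8c, which were listed at 0 in every library, and Cox4i2 and Ndufa4l2, with highest population means of 0.0654 and 0.0301 FPKM.

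The libraries came from CD8 T cells of OT-I mice, whose transgenic T cell receptor recognises the ovalbumin peptide SIINFEKL on H-2Kb. Cells were mixed with bone marrow dendritic cells bearing that peptide and kept for 14 days in IL-2 or in a cocktail of IL-7, IL-21, the glycolysis inhibitor 2-deoxyglucose and the glycogen synthase kinase 3 inhibitor TWS119. From IL-2, CD44+CD62L- cells were sorted; from the cocktail, CD44+CD62L-, CD44+CD62L+ and CD44loCD62L+ cells were sorted; uncultured naive OT-I cells, at day 0, formed the fifth population. The naive gate is CD44-CD62L+ in the design text and CD44loCD62L+ in the labels, the cocktail agents were not given singly, and neither the age of the mice nor the number pooled is stated. Each population had 3 libraries, which the design text calls technical replicates, so the spread and the p-values below are those between libraries alone; spread between animals or cultures was not measured.

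The respiratory chain sits in the inner mitochondrial membrane. Complexes I and II pass electrons from NADH and succinate to ubiquinone, complex III passes them on to cytochrome c, complex IV reduces oxygen, and complex V, the ATP synthase, uses the proton gradient built by complexes I, III and IV to make ATP. A few core subunits of complexes I, III, IV and V are encoded in mitochondrial DNA and were not analysed here; the genes below are nuclear. Naive T cells are quiescent, activated T cells enlarge their mitochondria as they grow and divide, and memory T cells are known for their reliance on oxidative metabolism.

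FPKM sums were 669341 to 781949 per library and sequencing depth was unknown. Replicates of the members were close, with a median coefficient of variation of 1.67% among those with at least 10 FPKM. Cd8a, which marks the labelled cell type, was at 217.8 ± 1.59 FPKM in IL-2, 342 ± 3.52 in cocktail CD44+CD62L- and 465 ± 3.39 in naive cells. Of the 9 CD8 T cell markers none was listed at 0 in any population, but Trat1 was at 0.0474 ± 0.0410 FPKM in IL-2 cells against 37.55 ± 2.00 in naive cells, and Cd8b1 at 263 ± 1.22 against 1059 ± 9.28. Of the 82 genes, 81 could be placed in the GENCODE annotation of GRCm38; exons of 24 overlapped another protein-coding gene, exons of 26 overlapped a gene on the opposite strand, and 5 had a pseudogene named after them. Whether the authors counted by strand is not given in the sources used here, so values of such genes are less certain.

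Most of the genes were higher in the IL-2 cells than in naive cells. A gene was called at a limma adjusted p under 0.05 and a fold of at least 1.5, both from log2(FPKM + 1) values, in which changes of low genes come out too small. In that comparison 64 of 82 rose and 2 fell, against 28.3% of the 11242 genes tested that were called higher and 25.3% called lower. The median log2 fold change was 0.92 for the 82 and 0.02 for all genes tested. Highly expressed genes leaned the same way to a lesser degree: of the 1929 genes with a mean of at least 50 FPKM, 38.9% were higher and 17.6% lower, with a median of 0.32. Values in bulk RNA are per library total, so more RNA of these genes per cell and a change in the make-up of the sorted cells cannot be told apart.

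The cocktail populations lay between naive and IL-2 cells. Against naive cells, 29 genes rose and 2 fell in cocktail CD44+CD62L- cells (background 23.8% higher and 20% lower, median 0.49), 29 rose and 2 fell in CD44+CD62L+ cells (23.7% and 19.8%, median 0.48), and 17 rose and 1 fell in CD44loCD62L+ cells (19.9% and 16.1%, median 0.33). The last count, 20.7% of the genes, was close to its background. Among genes of at least 50 FPKM, 28.2%, 27.22% and 21.88% were higher in the same order, with medians of 0.21, 0.18 and 0.11. Beside these, 35.37%, 35.37% and 20.73% of the members rose. The excess over highly expressed genes was thus smaller in both CD44+ populations, and the CD44loCD62L+ share was slightly below theirs, although all member medians were higher. These comparisons share the naive libraries. At a fold of at least 2, 35 rose in IL-2 cells (background 17.6%), 4 in cocktail CD44+CD62L- cells (13.9%), 6 in CD44+CD62L+ cells (14.4%) and 1 in CD44loCD62L+ cells (11.6%). Quantile normalization, which forces 1 distribution on every library, lowered the count for IL-2 cells from 64 to 40, beside 24.2% of all genes called higher, and that for cocktail CD44+CD62L- cells from 29 to 17, a share near the 20.8% of all genes. Among the genes described below, Atp5b, Atp5g2, Cox4i1, Cox6a1, Cox8a, Ndufa1, Ndufa3, Ndufb4, Ndufs1, Ndufv3, Sdhc and Uqcrfs1 lost the call of IL-2 over naive cells under it, with no change of direction.

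Taken as levels, the 82 genes held 1.48% ± 0.0471 (SD, n = 3) of the FPKM sum in naive libraries, 2.01% ± 0.0346 in cocktail CD44loCD62L+, 2.25% ± 0.0351 in CD44+CD62L+, 2.22% ± 0.0116 in CD44+CD62L- and 2.81% ± 0.0732 in IL-2 libraries. The IL-2 libraries were above all 12 others in 66 of the 82 genes, where 28.5% of genes tested had that position, and the naive libraries were below all others in 61, against a background of 32.1%. For 51 of the 82, group means ran in the order naive, CD44loCD62L+, both cocktail CD44+ populations, IL-2, against 16.0% of genes tested. The plot of complex levels shows the same order in each of the 5 complexes, with the cocktail CD44+ populations side by side.

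**Figure D1:**
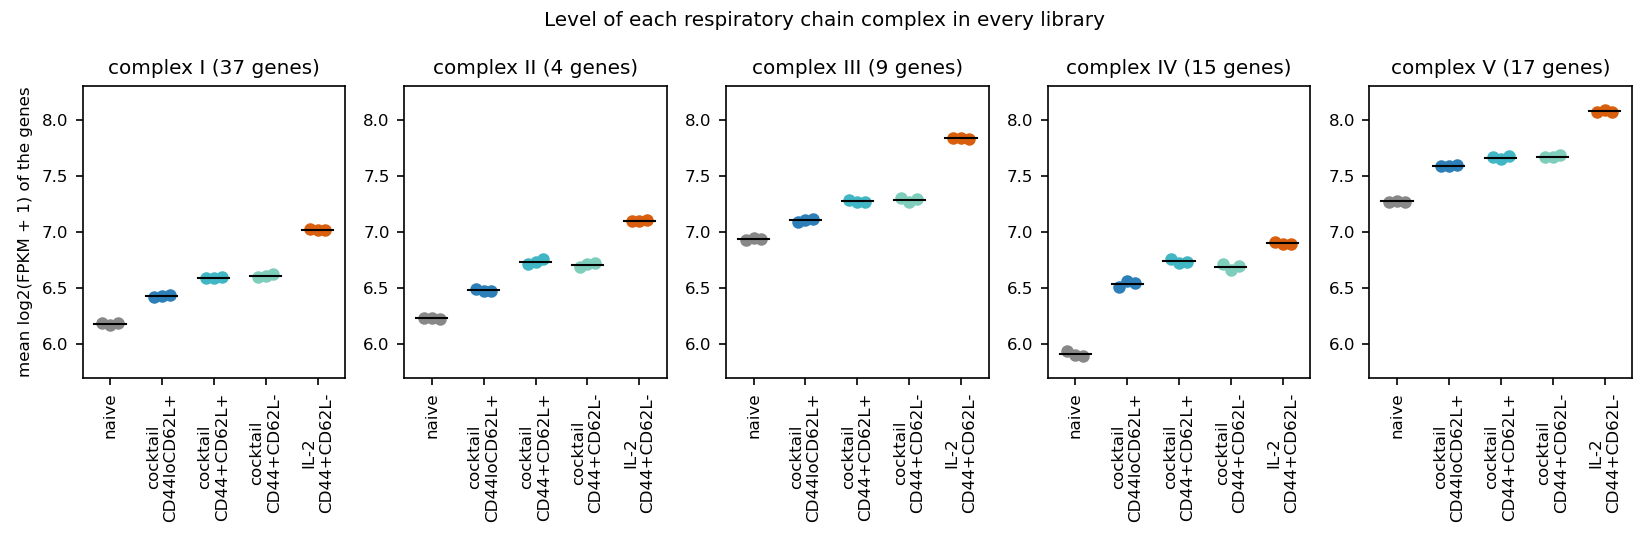
Mean log2(FPKM + 1) over the genes of each complex in every library (points) with the mean of 3 libraries (line), by population. In every complex the naive libraries were lowest and the IL-2 libraries highest, with means of 5.91 and 6.90 for complex IV.

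Promoter sequences are given for 5 members, to show how those with and without a match to the NRF1 motif compare, since nuclear respiratory factor 1 is a known regulator of respiratory genes. RefSeq promoters on GRCm38.p6 were found for 68 of the genes (74 promoters), and the 250 bases before the start were searched on both strands. The letters used for NRF1, GCGC followed by any base and TGCGC, were in 18.9% of them, in 3.74% of all 32851 promoters of the same length and in 5.18% of those of protein-coding genes. CCGGAAGT, used for ETS factors such as GABPA, was in 4.05% against 2.88% of all promoters and 3.79% of protein-coding ones. AAGATGGC, used for YY1, was in 2.70% against 1.56% and 1.5%, and GGGCGG, used for Sp1 and KLF factors, in 33.8% against 32.7% and 42.6%, so that it was less frequent than in protein-coding promoters. No motif lies inside another, and a promoter with several matches counts once. Of the 13 genes with an NRF1 match, 10 rose in IL-2 cells over naive cells with a median log2 fold change of 0.83, and of the 55 without one 42 rose and 2 fell with a median of 0.93. A match describes letters and is not a binding site, and no match says nothing of the factor.

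The sequences are from RefSeq, 5′ to 3′ on the strand of the gene, in lower case with NRF1 matches in capitals, and only bases in no annotated exon of either strand are printed. Cox5a at chr9:57520982-57521231 (plus strand) rose the most among complex IV genes above 10 FPKM and had no NRF1 match. Cox7a2l at chr17:83514334-83514583 (minus) fell in IL-2 against naive cells and had none; its RefSeq start lies inside the longer GENCODE span of the gene. Cox6a1 at chr5:115348982-115349129 (minus) rose in IL-2 cells and had 2. Ndufb4 at chr16:37654454-37654618 (minus) rose in IL-2 over naive cells and had 3, of which 1 lies in the bases printed. Atp5h at chr11:115419963-115420127 (minus) had 1 and was not called, with a log2 fold change of 0.56 ± 0.0179 in IL-2 over naive cells.
Cox5a: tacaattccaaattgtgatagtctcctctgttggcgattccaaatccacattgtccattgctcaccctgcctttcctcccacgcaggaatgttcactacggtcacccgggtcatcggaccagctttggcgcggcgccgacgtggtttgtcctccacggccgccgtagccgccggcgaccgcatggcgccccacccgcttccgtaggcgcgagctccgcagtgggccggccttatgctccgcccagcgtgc
Cox7a2l: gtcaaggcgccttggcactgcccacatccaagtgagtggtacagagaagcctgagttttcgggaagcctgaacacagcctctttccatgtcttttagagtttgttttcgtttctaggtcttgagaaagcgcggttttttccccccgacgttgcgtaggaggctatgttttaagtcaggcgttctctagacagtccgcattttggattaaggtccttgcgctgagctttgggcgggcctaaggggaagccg
Cox6a1: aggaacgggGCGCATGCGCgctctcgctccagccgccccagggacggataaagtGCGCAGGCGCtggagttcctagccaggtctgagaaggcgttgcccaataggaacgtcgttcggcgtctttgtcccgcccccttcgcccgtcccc
Ndufb4: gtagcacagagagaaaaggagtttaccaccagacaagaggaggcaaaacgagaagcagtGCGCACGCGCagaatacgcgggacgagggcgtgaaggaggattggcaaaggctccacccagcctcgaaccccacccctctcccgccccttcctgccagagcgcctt
Atp5h: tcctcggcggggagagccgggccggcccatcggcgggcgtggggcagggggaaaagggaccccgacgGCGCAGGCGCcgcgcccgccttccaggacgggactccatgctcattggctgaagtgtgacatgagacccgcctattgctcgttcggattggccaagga

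Complex I, the NADH dehydrogenase, had 28 of 37 genes higher and 0 lower in IL-2 than in naive cells. The backgrounds of 28.3% higher and 25.3% lower apply to every complex in this comparison. The median of complex I was 0.78, and by limma 1 gene was lower at an unadjusted p under 0.05. Of its 8 genes of the NADH-oxidising N module 7 rose, with a median of 0.85, of the 5 of the ubiquinone-reducing Q module 3 rose, with a median of 0.78, and of the 24 remaining genes 18 rose. In the cocktail populations the calls were fewer: 9 higher and 1 lower in CD44+CD62L-, 10 and 1 in CD44+CD62L+, and 4 and 1 in CD44loCD62L+ cells. The lower gene in each was Ndufa4, now regarded as a complex IV subunit. The higher shares of 24.3% and 27.0% were near the backgrounds of 23.8% and 23.7%, and that of 10.8% was below 19.9%. Unadjusted p-values by limma were under 0.05 for 33 to 36 of the 37 genes in these 3 comparisons. Shares of all genes at an unadjusted p were not counted. Counts of this kind, here and below, are thus not read as a trait of the members.

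Ndufb8 (chromosome 19, 44548572 to 44555440, minus strand), an accessory subunit of the membrane arm, rose the most in complex I. Its exons overlap those of Gm20538 in the annotation. Its libraries were at 76.5, 77.1 and 75.8 FPKM in naive, 119.8, 115 and 121 in cocktail CD44loCD62L+, 149, 156 and 156 in CD44+CD62L+, 138, 143 and 140.4 in CD44+CD62L- and 239.8, 231 and 250.1 in IL-2 cells. The 5 populations did not overlap, and the IL-2 libraries stood highest. The log2 fold change of IL-2 over naive cells was 1.64 ± 0.0285 (limma adjusted p = 1.15e-15). Ndufc2, another membrane arm subunit, was at 49.8, 51.6 and 48.7 FPKM in naive and 146, 144 and 146 in IL-2 libraries, and already at 99.4, 93.1 and 99.9 in CD44loCD62L+ libraries. Ndufc2 was the complex I gene with the highest fold change in cocktail CD44+CD62L- cells, 1.25 ± 0.0274 (limma adjusted p = 2.05e-14).

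Ndufa3, a small membrane arm subunit with the highest mean of complex I, 300.1 FPKM over all libraries, was at 243 ± 1.59 in naive and 368 ± 8.61 in IL-2 cells, close to the minimum fold (log2 fold change 0.59 ± 0.0208), and without IL-2 replicate 1 it was 0.58 and not called. Its exons overlap those of Tfpt. Ndufv3, an accessory subunit of the N module, followed another order: 113, 113 and 113 FPKM in naive, 183, 174 and 180.1 in IL-2 and 222, 226 and 217 in CD44loCD62L+ libraries. All cocktail libraries of Ndufv3 were above all IL-2 libraries, although cocktail CD44+CD62L- and IL-2 cells differed by only 0.21 ± 0.0250 on the log2 scale, which was not called. Ndufab1, the mitochondrial acyl carrier protein, rose in IL-2 over naive cells (0.93) and had, after Cox6b2, the highest fold change between cocktail CD44+CD62L+ and CD44+CD62L- cells, 50.4 ± 1.43 against 41.9 ± 0.993 FPKM.

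Ndufa4 (chromosome 6, 11900292 to 11907497, minus strand) stood apart in the cocktail. It was named as a complex I gene and is now regarded as a complex IV subunit. Its libraries were at 294, 286 and 292 FPKM in naive and 351, 365 and 349.8 in IL-2 cells, but at 141, 151 and 142 in cocktail CD44+CD62L-, 143, 138 and 137 in CD44+CD62L+ and 111, 122 and 123 in CD44loCD62L+ cells. Every cocktail library was below every naive and IL-2 library. It fell in all 3 cocktail populations against naive cells, with log2 fold changes of -1.002, -1.05 and -1.29 (limma adjusted p = 4.98e-12, 2.89e-12 and 4e-13), and in cocktail CD44+CD62L- against IL-2 cells, -1.29 ± 0.0362 (adjusted p = 7.5e-13). The difference of IL-2 from naive cells, 0.29 ± 0.0362, was below the minimum fold.

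Ndufa6, a matrix-side accessory subunit, was with Cox6a2 and Cox7a2l 1 of 3 members lowest in the IL-2 libraries (background 25.3%), at 147, 143 and 148 FPKM, against 178, 192 and 186 in naive and 214, 210.4 and 216 in CD44loCD62L+ libraries. Its fold changes did not reach the minimum, -0.34 ± 0.0244 for IL-2 over naive and 0.44 ± 0.0244 for cocktail CD44+CD62L- over IL-2 cells, although both were called under quantile normalization. Ndufb10, Uqcrh and Ndufa6 were the 3 members with the CD44loCD62L+ libraries above all others (background 8.94%), and Ndufa1, Ndufa4, Ndufs1, Sdha and Cyc1 the 5 with these libraries below all others (9.07%). Ndufs5, an accessory subunit on the intermembrane side, had the widest spread in complex I, with cocktail CD44+CD62L- libraries at 42.4, 40.3 and 60.0 FPKM; it was not called in these over naive cells (0.57) and passed the minimum fold without naive replicate 1 (0.63) or cocktail replicate 1 (0.64) or 2 (0.67).

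**Figure D2:**
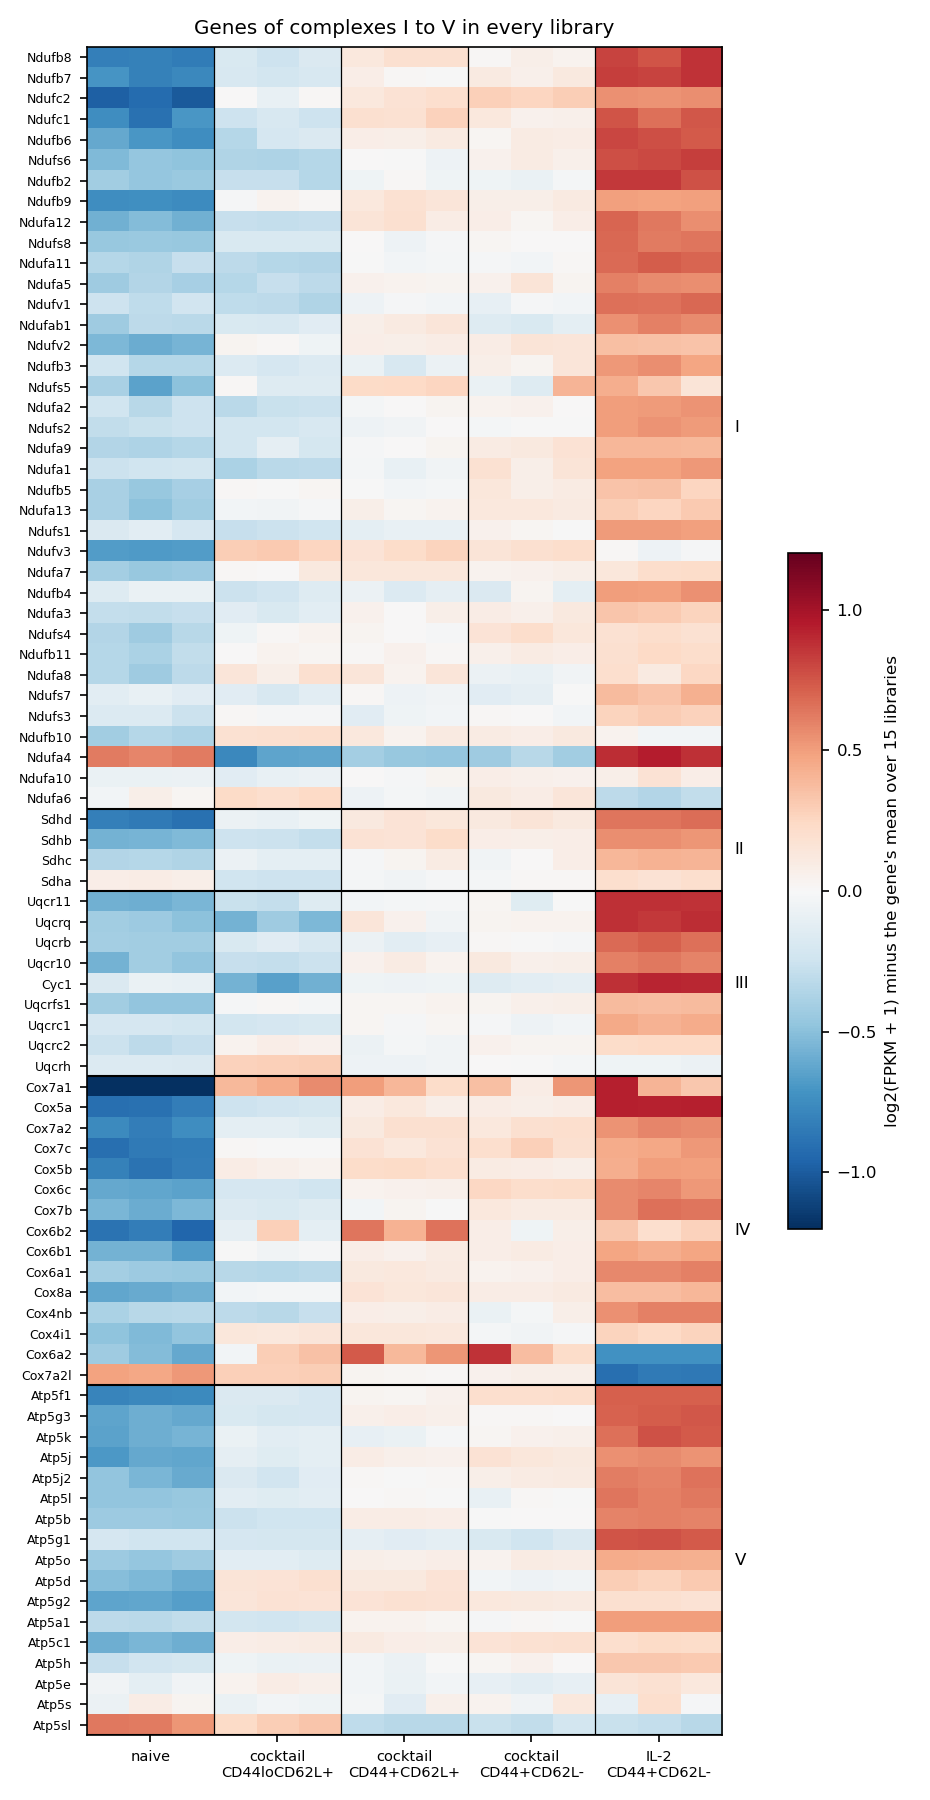
Each gene's log2(FPKM + 1) minus its mean over all 15 libraries, with libraries in columns by population and genes in rows by complex, ordered by the change from naive to IL-2 cells; colours end at 1.2 on either side. Most genes run from low in naive to high in IL-2 libraries, and Cox7a2l, Atp5sl, Ndufa4, Ndufa6 and Uqcrh are among those that do not; naive libraries of Cox7a1 lie beyond the colour scale.

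Complex II, succinate dehydrogenase, also belongs to the citric acid cycle and has no mitochondrially encoded subunit. Of its 4 genes 3 rose in IL-2 over naive cells (median 0.93), and 2, 2 and 1 rose in cocktail CD44+CD62L-, CD44+CD62L+ and CD44loCD62L+ over naive cells. The cocktail shares were 50%, 50% and 25%, against 23.8%, 23.7% and 19.9% of all genes, and shares of 4 genes are coarse. The gene not called in IL-2 cells was Sdha, the flavoprotein. Sdha libraries were at 99.8, 100.3 and 99.6 FPKM in naive, 80.0, 79.2 and 79.5 in CD44loCD62L+, 93.2, 95.5 and 95.3 in cocktail CD44+CD62L- and 109, 107 and 109 in IL-2 cells, a range in which no comparison was called (log2 fold change of IL-2 over naive 0.11 ± 0.0118). Sdhb, the iron-sulfur subunit, was at 87.6, 87.9 and 89.98 in naive and 192, 192 and 189 in IL-2 libraries, a log2 fold change of 1.10 ± 0.0153 (limma adjusted p = 1.03e-16).

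The membrane anchors Sdhc and Sdhd both rose in IL-2 cells. Sdhc was at 55.8 ± 0.304 FPKM in naive and 95.1 ± 0.538 in IL-2 cells (0.76), and Sdhd at 61.05 ± 1.69 and 175 ± 2.17 (1.51). Sdhd was the member of complex II called in CD44loCD62L+ over naive cells, at 106, 105 and 107 FPKM, 0.78 ± 0.0195 on the log2 scale (limma adjusted p = 1.07e-13). In naive cells Sdha was the highest of the 4 per length and in IL-2 cells Sdhb and Sdhd were above it.

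Complex III, the cytochrome bc1 complex, was raised in IL-2 cells and called in no cocktail population. Of its 9 genes 7 rose in IL-2 over naive cells (median 1.01, background 28.3%). By limma 0 were called in each of the cocktail populations over naive cells, where 23.8%, 23.7% and 19.9% of all genes were higher. Medians there were 0.41, 0.31 and 0.24. At an unadjusted p under 0.05 by limma were 8, 8 and 7 of 9, and shares of all genes at that p were not counted. Against IL-2 cells, cocktail CD44+CD62L- cells had 4 of 9 lower (background 10.8%). Leaving out naive replicate 2 brought Uqcr10, a small subunit, past the minimum fold in cocktail CD44+CD62L- over naive cells, at 0.60 on the log2 scale.

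Cyc1, which encodes cytochrome c1 and carries electrons out of the complex, was at 95.4, 102 and 102 FPKM in naive, 72.5, 68.3 and 72.0 in CD44loCD62L+, 104, 104 and 104 in CD44+CD62L+, 96.8, 98.5 and 100.2 in CD44+CD62L- and 199, 204 and 203 in IL-2 cells. The IL-2 libraries were far above all others, the CD44loCD62L+ libraries below all others, and naive and cocktail CD44+CD62L- libraries overlapped. The log2 fold change was 1.01 ± 0.0263 for IL-2 over naive (limma adjusted p = 1e-13) and -1.03 ± 0.0263 for cocktail CD44+CD62L- over IL-2 cells (adjusted p = 2.99e-13). Uqcrfs1, the Rieske iron-sulfur protein and the other catalytic gene, was at 78.6 ± 1.82 in naive, 108 ± 1.22 in CD44loCD62L+ and 140.5 ± 0.307 in IL-2 cells.

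Uqcrh, the hinge protein that helps c1 receive cytochrome c, was the most abundant gene of the complex per length at 554 FPKM over all libraries. It was at 492, 492 and 489 FPKM in naive, 533, 530.0 and 526 in IL-2 and 669, 673 and 678 in CD44loCD62L+ libraries, so that its highest level was in CD44loCD62L+ cells, and no comparison was called (0.45 ± 0.00886 for CD44loCD62L+ over naive). The annotation holds 2 pseudogenes named after it. Uqcrq, a small membrane subunit, rose in IL-2 over naive cells, 231, 226 and 232 against 93.5, 92.4 and 88.7 FPKM (1.32 ± 0.0428), and its CD44loCD62L+ libraries at 84.1, 93.2 and 86.2 overlapped the naive ones.

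**Figure D3:**
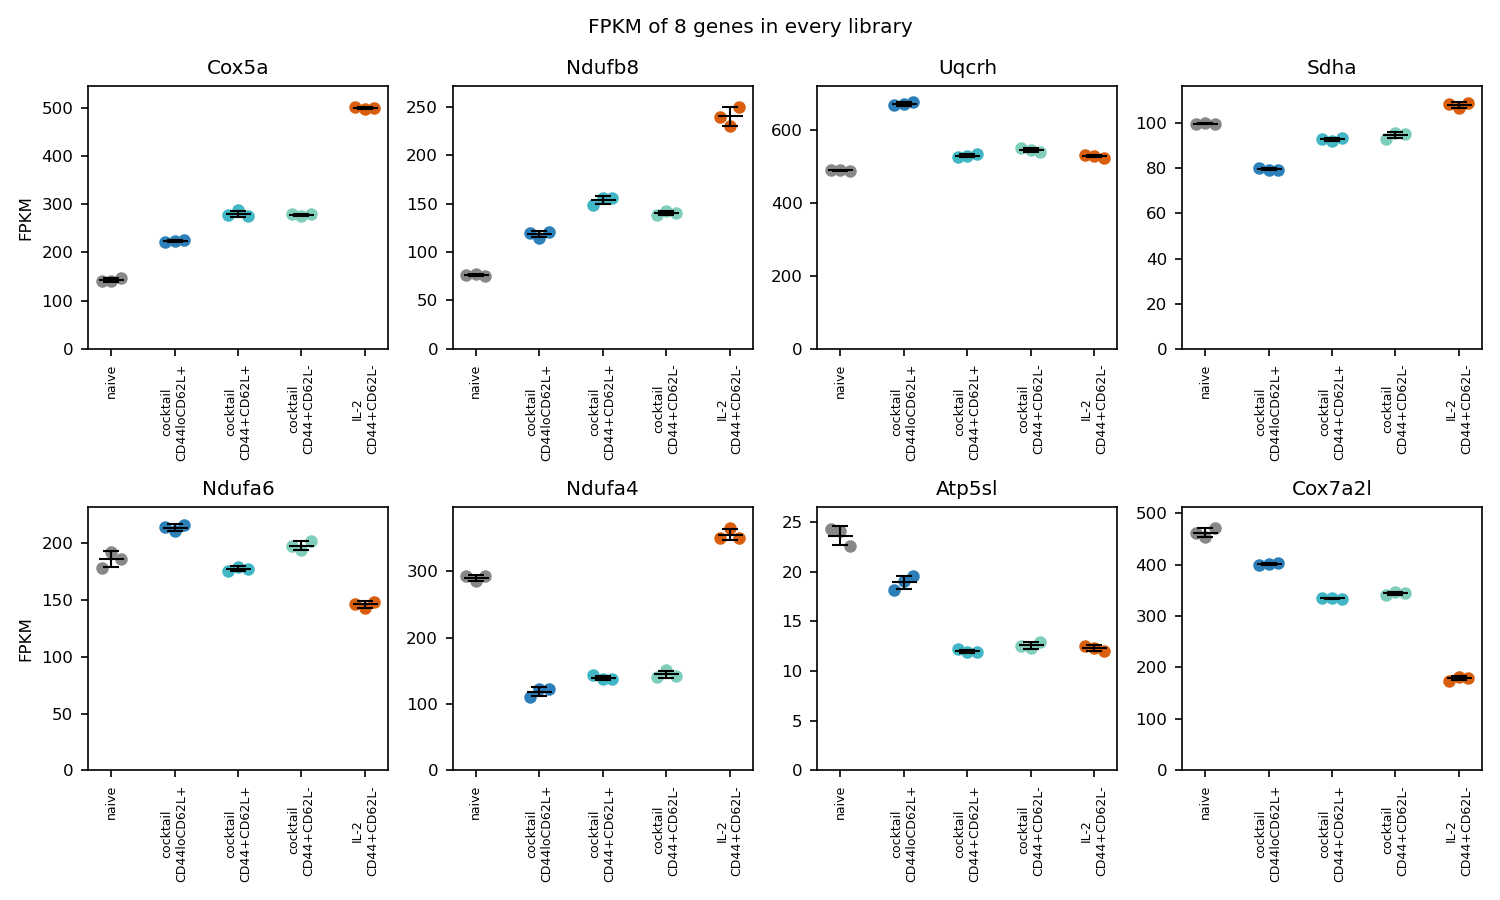
FPKM of 8 genes in each library (points) with mean and SD of 3 libraries, by population, on linear axes from 0. Cox5a and Ndufb8 were highest in IL-2 cells, Uqcrh and Ndufa6 in cocktail CD44loCD62L+ cells, Atp5sl and Cox7a2l in naive cells, and Ndufa4 was low in the 3 cocktail populations.

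Complex IV, cytochrome c oxidase, had the largest share of its genes called in each cocktail population. Of 15 genes, 13 rose and 1 fell in IL-2 over naive cells (median 1.16), and 11, 11 and 8 rose in cocktail CD44+CD62L-, CD44+CD62L+ and CD44loCD62L+ over naive cells (medians 0.86, 0.75 and 0.63), with 0 lower by limma in each, where 1 gene of 15 was lower at an unadjusted p under 0.05. The cocktail shares were 73.3%, 73.3% and 53.3%, against 23.8%, 23.7% and 19.9% of all genes. No test compared the complexes with each other. 5 of the 15 symbols call for care. Cox4nb, now named Emc8, is not a respiratory subunit and overlaps Cox4i1 on the opposite strand, and Cox7a2l acts in supercomplex assembly. Cox6a2, Cox6b2 and Cox7a1 were at low levels, with naive means of 0.152, 0.808 and 0.504 FPKM. They passed the FPKM minimum only through cultured populations, so the filter favoured their rise over naive cells. All are among the genes called in each cocktail population, so the shares above rest in part on them.

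Cox5a (chromosome 9, 57521274 to 57532426, plus strand), a nuclear subunit on the matrix face, was at 139.8, 141 and 147 FPKM in naive, 221, 224 and 227 in CD44loCD62L+, 278, 287 and 275 in CD44+CD62L+, 279, 276 and 279.7 in CD44+CD62L- and 501, 498 and 500.2 in IL-2 libraries. Naive, CD44loCD62L+, cocktail CD44+ and IL-2 libraries formed 4 separate levels, with the cocktail CD44+ populations overlapping. Exons of Gm26631 overlap it on the opposite strand. Cox5a rose by 1.80 ± 0.0186 on the log2 scale in IL-2 over naive cells (limma adjusted p = 4.55e-18) and was -0.84 ± 0.0186 in cocktail CD44+CD62L- over IL-2 cells (adjusted p = 6.42e-14).

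The most abundant complex IV genes rose less. Cox4i1, the ubiquitous isoform of subunit 4, was at 371 ± 7.16 FPKM in naive, 575 ± 4.02 in CD44loCD62L+ and 627 ± 8.504 in IL-2 cells (0.75), and Cox8a, a short membrane subunit, at 316 ± 5.11, 469 ± 2.26 and 623 ± 8.17 (0.98). Cox7c was at 112, 117 and 117.6 FPKM in naive, 243, 258 and 242 in cocktail CD44+CD62L- and 287, 291 and 302 in IL-2 libraries, the largest rise among the complex IV genes above 10 FPKM in cocktail CD44+CD62L- cells (1.09 ± 0.0259, limma adjusted p = 4.81e-14). Cox5b, Cox6c, Cox6b1, Cox7b and Cox6a1 also rose in IL-2 cells, by 1.32, 1.19, 1.07, 1.18 and 1.01. Cox6a1 was 0.10 in CD44loCD62L+ over naive cells and was not called there.

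Cox7a2l (chromosome 17, 83501918 to 83517330, minus strand), also known as SCAF1, which links complexes III and IV, went the other way. Its libraries were at 461, 454 and 472 FPKM in naive, 399.5, 402 and 404 in CD44loCD62L+, 335, 334 and 332 in CD44+CD62L+, 341, 346 and 345 in CD44+CD62L- and 174, 182 and 180.4 in IL-2 cells. The order was the reverse of that of Cox5a, with naive libraries highest and IL-2 libraries lowest. It fell in IL-2 against naive cells (-1.36 ± 0.0154, limma adjusted p = 1.16e-17) and was higher in cocktail CD44+CD62L- than in IL-2 cells (0.94 ± 0.0154, adjusted p = 3.12e-15). In cocktail CD44+CD62L- against naive cells it was -0.43 ± 0.0154 and not called, and under quantile normalization it was called lower there and in the CD44+CD62L+ cells. Naive libraries were above all others for 2 members, Cox7a2l and Atp5sl, against 33.1% of genes tested.

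Cox7a2, the paralogous structural isoform, rose as Cox7a2l fell, from 87.2, 82.9 and 88.1 FPKM in naive to 216, 224 and 219.8 in IL-2 libraries (1.34 ± 0.0272, limma adjusted p = 6.14e-15). In the summed FPKM of Cox7a1, Cox7a2 and Cox7a2l, the share of Cox7a2l was 84.2% ± 0.271 in naive, 74.0% ± 0.272 in CD44loCD62L+, 66.01% ± 0.655 in CD44+CD62L+, 66.6% ± 0.521 in cocktail CD44+CD62L- and 44.2% ± 0.383 in IL-2 cells (SD, n = 3), and that of Cox7a2 15.7%, 24.96%, 32.9%, 32.4% and 54.3%. Shares of the cocktail CD44+ populations overlapped and the other populations were apart. Cox7a1, the heart and muscle isoform, was low throughout, at 0.870, 0.427 and 0.216 FPKM in naive, 5.41, 5.66 and 6.25 in CD44loCD62L+ and 8.305, 5.46 and 5.10 in IL-2 libraries, and its log2 fold changes over naive cells of 2.27, 2.04, 2.09 and 2.19 were the largest of the members. Cox7a1 passed the FPKM minimum only through cultured populations, so the filter favoured its rise and its rank is not read as a result.

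Other tissue isoforms were at low levels too. Cox6a2, the muscle form, was listed at 0 in all IL-2 libraries and at 0.230, 0.151 and 0.0760 FPKM in naive and 1.74, 1.17 and 1.39 in CD44+CD62L+ libraries, at most 0.280% of the summed level of Cox6a1 and Cox6a2 by population mean. It was the only member with a value of 0, so no fold is given against IL-2 cells; its exons overlap Itgad, and its calls over naive cells were lost with a pseudocount of 5 (0.32 or less). Cox6b2, the testis form, was at 0.805, 0.884 and 0.734 FPKM in naive, 2.53, 2.23 and 2.504 in cocktail CD44+CD62L- and 4.22, 3.46 and 4.25 in CD44+CD62L+ libraries, where it was above all other populations (background 4.76%); with a pseudocount of 5 its calls over naive cells in the IL-2 (0.47), cocktail CD44+CD62L- (0.35) and CD44loCD62L+ (0.35) cells were lost.

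**Figure D4:**
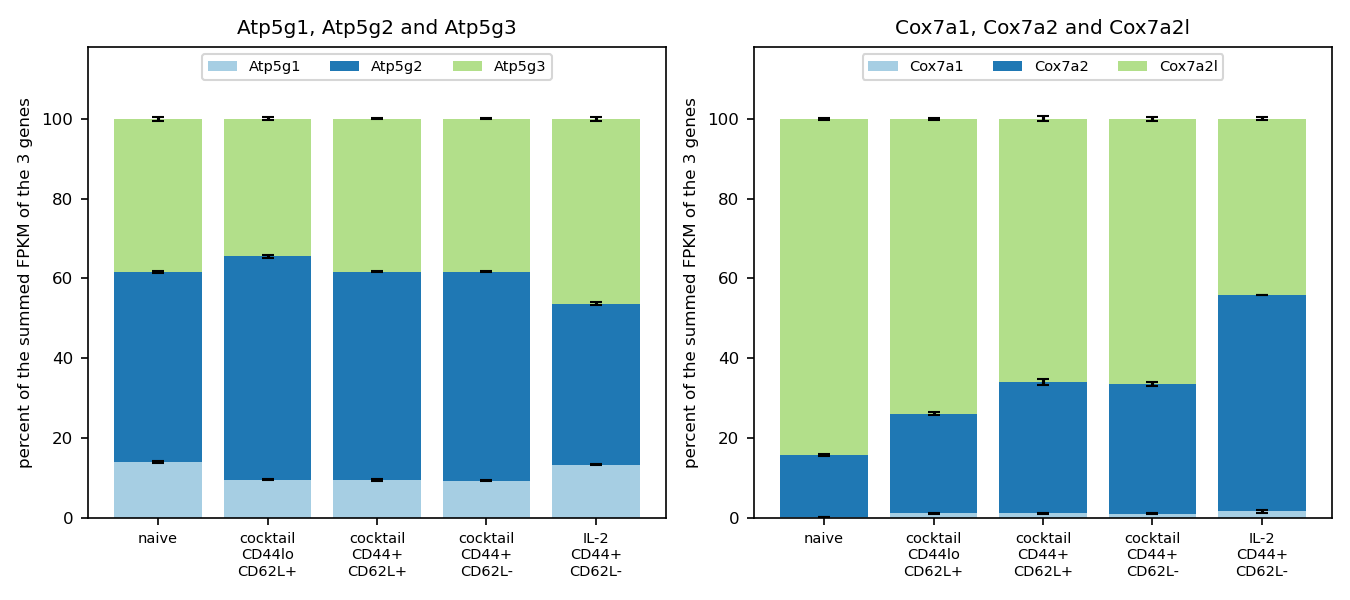
Percent of the summed FPKM held by each gene of 2 families, mean of 3 libraries with SD at the top of each block, by population. Cox7a2l held 84.2% of its family in naive and 44.2% in IL-2 cells, and Atp5g1 held 9.30% to 9.55% of its family in the cocktail populations against 14.0% in naive cells.

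Complex V, the ATP synthase, had 13 of 17 genes higher and 1 lower in IL-2 over naive cells (median 0.88). In its catalytic F1 head 4 of 5 genes rose (median 0.82), in the peripheral stalk 3 of 4 (median 1.03), in the c ring 3 of 3 (median 0.98), and in the remaining FO subunits Atp5j2, Atp5k and Atp5l 3 of 3 (median 1.16). In cocktail CD44+CD62L-, CD44+CD62L+ and CD44loCD62L+ over naive cells 7, 6 and 4 of the 17 rose (41.2%, 35.3% and 23.5%, against backgrounds of 23.8%, 23.7% and 19.9%) and 1, 1 and 0 fell. The single lower gene was Atp5sl, and by limma 1 gene of 17 was lower at an unadjusted p under 0.05 in the CD44loCD62L+ cells.

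Atp5b (chromosome 10, 128083273 to 128090391, plus strand), the catalytic beta subunit, had the highest mean of all 82 genes per length, 598 FPKM over all libraries. Its libraries were at 428, 428 and 426 FPKM in naive, 485, 491 and 490.4 in CD44loCD62L+, 617, 618 and 614 in CD44+CD62L+, 577, 583 and 583 in CD44+CD62L- and 874, 881 and 879 in IL-2 cells. The 5 populations did not overlap. Atp5b rose by 1.04 ± 0.00629 on the log2 scale in IL-2 over naive cells (limma adjusted p = 2.06e-20) and fell in cocktail CD44+CD62L- against IL-2 cells, -0.60 ± 0.00629 (adjusted p = 4.44e-17), just past the minimum fold and not called under quantile normalization.

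The c ring genes Atp5g1, Atp5g2 and Atp5g3 encode the same mature proton-carrying subunit. Their summed level was 695 ± 6.65 FPKM in naive, 1032 ± 3.36 in CD44loCD62L+, 1114 ± 5.77 in CD44+CD62L+, 1070.0 ± 6.04 in CD44+CD62L- and 1456 ± 5.04 in IL-2 cells (SD, n = 3). Each contributed to it in its own way. Atp5g1 was at 99.0, 96.4 and 96.2 FPKM in naive, 100.5, 96.7 and 101 in cocktail CD44+CD62L- and 194, 195 and 191 in IL-2 libraries, so the cocktail cells stayed near the naive level (0.03 ± 0.0165, not called) and the IL-2 cells rose (0.98 ± 0.0165). Atp5g2 rose in every culture, to 578 ± 6.64 in CD44loCD62L+, 559.7 ± 3.93 in CD44+CD62L- and 588 ± 3.48 in IL-2 cells, from 331 ± 4.14 in naive cells; under quantile normalization none of its 4 calls over naive cells remained. Atp5g3 ran in steps, 267 ± 4.75 in naive, 356 ± 3.17 in CD44loCD62L+, 410.5 ± 1.47 in CD44+CD62L- and 676 ± 8.59 in IL-2 cells.

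Atp5sl, now named Dmac2 and involved in the assembly of complex I, fell in IL-2 cells and in the CD44+ cocktail cells. Its libraries were at 24.2, 24.1 and 22.5 FPKM in naive, 18.1, 19.0 and 19.5 in CD44loCD62L+, 12.2, 11.9 and 11.9 in CD44+CD62L+, 12.5, 12.3 and 12.9 in CD44+CD62L- and 12.5, 12.3 and 11.96 in IL-2 cells. The 3 CD44+ populations lay together below the CD44loCD62L+ libraries, which lay below the naive ones. Its log2 fold changes over naive cells were -0.86 and -0.92 in the cocktail CD44+CD62L- and CD44+CD62L+ cells, both called, and -0.31 in the CD44loCD62L+ cells. The fold change of IL-2 over naive cells was -0.89 ± 0.0321 (limma adjusted p = 3.9e-12). Atp5s, now named Dmac2l, was at 2.68 ± 0.196 in naive and 2.72 ± 0.407 in IL-2 cells, a difference within the spread of its libraries.

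The culture conditions were compared at the same gate, CD44+CD62L-. In the cocktail cells 23 of the 82 genes were lower and 2 higher than in IL-2 cells, where 10.8% of genes tested were lower and 11.2% higher, with a median log2 fold change of -0.40 against -0.01 for all genes. Among genes of at least 50 FPKM, 12.4% were lower and 10.5% higher, with a median of -0.10. By complex, 12 of 37 were lower in complex I, 0 of 4 in II, 4 of 9 in III, 2 of 15 in IV and 5 of 17 in V; in complex II all 4 were lower at an unadjusted p under 0.05 by limma. Of the lower genes the largest differences were in Ndufa4 (-1.29), Cyc1 (-1.03) and Atp5g1 (-0.95); the 2 higher were Cox6a2 and Cox7a2l. Cox6a2 was listed at 0 in all IL-2 libraries and passed the FPKM minimum only through the cocktail CD44+ populations. The filter thus fixed its direction here, and its call was lost with a pseudocount of 5. At a fold of at least 2, 2 were lower (background 3.20%). Under quantile normalization 11 were lower and 3 higher, where 9.80% of all genes were lower and 10.7% higher.

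**Figure D5:**
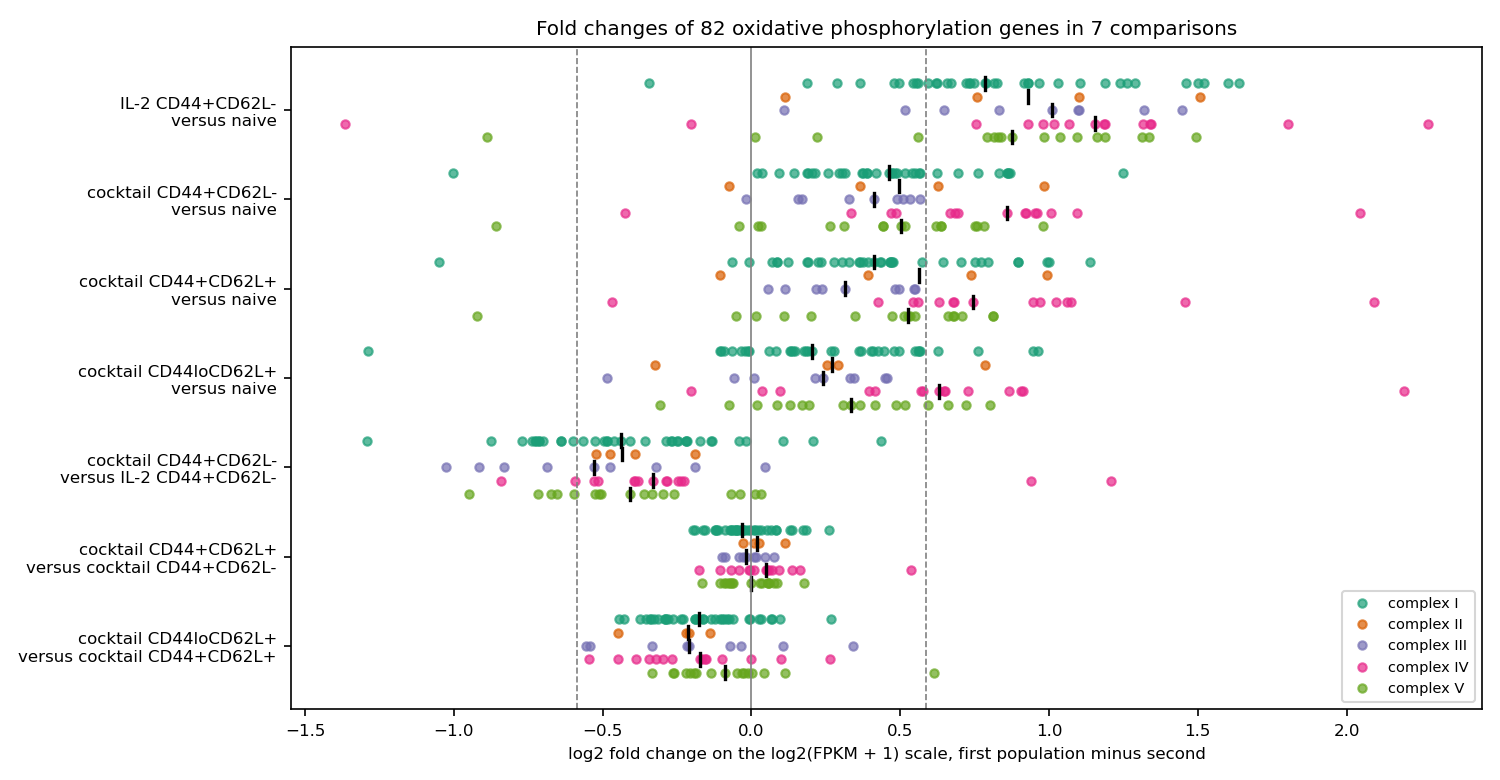
Log2 fold change of each of the 82 genes (points, coloured by complex) in the 7 comparisons, with the median of each complex (bars) and dashed lines at a fold of 1.5. The points spread from -1.36 to 2.27 in IL-2 over naive cells and from -0.20 to 0.54 between cocktail CD44+CD62L+ and CD44+CD62L- cells. The upper ends are Cox7a1 and Cox6b2, both at low levels.

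Within the cocktail, differences between the CD62L gates were small. Of the 82 genes, 0 were called between CD44+CD62L+ and CD44+CD62L- cells by limma, where 0.294% of genes tested were higher and 0.338% lower, and 52 had an unadjusted p under 0.05. At an adjusted p under 0.05 alone, 22 were higher and 24 lower, and the libraries did not overlap in 23 genes that were higher and 27 that were lower in CD44+CD62L+ cells. Shares of all genes at a p-value alone or without overlap were not counted here, so these counts are not read as a trait of the members. Log2 fold changes lay within 0.2 of 0 for 80 of the 82 genes, and the outliers were Cox6b2 (0.54 ± 0.0967) and Ndufab1 (0.26 ± 0.0305). Without CD44+CD62L+ replicate 2, Cox6b2 passed the minimum fold, at 0.61.

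The CD44loCD62L+ cells were slightly below the CD44+CD62L+ cells in most genes. The median log2 fold change was -0.18, against 0.00 for all genes, and 58 genes were lower and 9 higher at an adjusted p under 0.05 alone, but 1 was called higher (background 2.55%) and 0 lower (6.11%), where 60 were lower at an unadjusted p under 0.05 by limma. Shares of all genes at a p-value alone were not counted. Below 0 were 68 of the 82 log2 fold changes, against 5612 of the 11242 for all genes tested. The call was Atp5sl (0.61 ± 0.0321, limma adjusted p = 1.16e-09, and 0.49 and not called with a pseudocount of 5), and the lowest were Uqcrq (-0.56), Cox6b2 (-0.55) and Cyc1 (-0.54). Without CD44+CD62L+ replicate 3 or CD44loCD62L+ replicate 2, Uqcrq was at -0.60 and called, and without replicate 2 of either population Cox6b2 was called, at -0.62 and -0.68.

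Genes around the chain were called in part in IL-2 over naive cells. Of the assembly factors tested, 3 of 10 rose and 1 fell for complex I and 5 of 13 rose for IV, while the 2 for complex II and 3 for complex III were not called. With 28.3% of all genes called higher, the share for complex I assembly was at background. Those that rose included Cox17, a copper chaperone, at 93.7 ± 2.36 FPKM in naive and 371 ± 4.37 in IL-2 cells. Of 5 genes of complex V assembly and regulation 2 rose: Atpif1, the inhibitor of ATP hydrolysis by the synthase, from 35.4 ± 0.754 to 334 ± 6.81 FPKM, a log2 fold change of 3.20 that exceeded that of every member, and Usmg5, a small synthase-associated protein, from 146 ± 5.90 to 387 ± 9.47. Both genes of cytochrome c and its maturation tested rose, with Cycs, the electron carrier itself, at 29.7 ± 0.267 and 80.0 ± 0.144 FPKM.

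Genes that feed electrons into the chain rose in part. Of 17 citric acid cycle genes 7 rose (median 0.51), with Fh1, fumarase, at 25.8 ± 0.725 FPKM in naive and 79.3 ± 0.848 in IL-2 cells. Of 6 other electron donors to ubiquinone 3 rose and 1 fell, with Etfb, a subunit of the electron transfer flavoprotein, at 34.3 ± 0.343 and 186.9 ± 0.579 FPKM. Of 8 inner membrane carriers 4 rose, including the ADP/ATP carrier Slc25a5, at 337 ± 2.05 and 774 ± 4.76, and of 12 ubiquinone synthesis genes 4 rose and 1 fell, a higher share of 33.3% near the background of 28.3%.

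Genes of mitochondrial DNA upkeep, transcription and biogenesis that were called were all lower. Of 15 tested, 4 fell in IL-2 over naive cells, and 5, 6 and 5 fell in the cocktail CD44+CD62L-, CD44+CD62L+ and CD44loCD62L+ cells. The share of 26.7% in IL-2 cells was near the background of 25.3%, and backgrounds in the cocktail populations were 20%, 19.8% and 16.1%. Polg, the mitochondrial DNA polymerase, was at 27.3 ± 0.340 FPKM in naive and 12.2 ± 0.402 in IL-2 cells, and Ppargc1b, a coactivator of respiratory genes, at 3.86 ± 0.181 and 1.08 ± 0.108. Nrf1, whose product binds the motif searched above and which was named after its values were seen, was at 19.9 FPKM in naive and 23.4 in IL-2 cells and was not called.

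Cocktail CD44+CD62L- cells against IL-2 cells gave calls in these lists that were all but 1 lower, where 10.8% of all genes were called lower. Lower were 4 of 10 complex I assembly factors, 3 of 13 for complex IV, 2 of 5 for complex V, 1 of 2 cytochrome c genes, 3 of 17 citric acid cycle genes, 2 of 6 other donors, 1 of 8 carriers and 3 of 12 ubiquinone synthesis genes, and 1 complex IV assembly factor was higher. Gpd2, mitochondrial glycerol-3-phosphate dehydrogenase, was at 5.68 ± 0.102 FPKM in cocktail and 15.9 ± 0.160 in IL-2 cells.

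Cell cycle genes, like the respiratory genes, had their lowest summed level in naive and their highest in IL-2 libraries. All 20 cell cycle genes rose in each cultured population over naive cells, with medians of 4.55 in IL-2, 4.13 in cocktail CD44+CD62L-, 4.47 in CD44+CD62L+ and 2.70 in CD44loCD62L+ cells. In the same order, 28.3%, 23.8%, 23.7% and 19.9% of all genes were higher. Of the 20, 18 were lower in CD44loCD62L+ than in CD44+CD62L+ cells (background 6.11%). The summed level of the cell cycle genes was 351 to 356 FPKM in naive, 1056 to 1061 in CD44loCD62L+, 2467 to 2486 in CD44+CD62L+, 2129 to 2134 in cocktail CD44+CD62L- and 2731 to 2746 in IL-2 libraries. The part of cell division in the differences of the respiratory genes was not tested.

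Markers of other cells were detected in every population. Summed levels of 8 B cell markers were 42.6 to 44.1 FPKM in naive libraries, 6.28 to 6.99 in IL-2 libraries and 2.19 to 3.07 in cocktail libraries, with Ms4a1 and Pax5 at 0 in all cultured populations, and the 6 that passed the filter fell in every culture. The 19 dendritic cell and macrophage markers in the table summed to 272 to 273 FPKM in naive, 73.1 to 74.6 in IL-2 and 143 to 174 in cocktail libraries; of 14 tested, 3 rose and 10 fell in IL-2 over naive cells and 9 were higher and 2 lower in cocktail CD44+CD62L- than in IL-2 cells, while Clec9a was at 0 in every culture. Of 4 NK cell markers, which effector T cells also express, 3 rose and 1 fell in IL-2 over naive cells, of 3 CD4 T cell markers 2 and 1, and of 3 erythroid, platelet and neutrophil markers 2 fell. Of the 9 CD8 T cell markers 4 fell in IL-2 over naive cells. The part of other cells in the differences of the respiratory genes was not tested.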

How the data were processed

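RNA-seq was measured in 15 libraries, 3 for each of 5 populations, assigned by their labels. The FPKM values are those the authors deposited, 1 column per library; TopHat2 2.0.9, Cuffdiff 2.1.1 and mm10 are named per the submitters' processing notes. The annotation, how strand was handled and other settings: not given in the sources used here. No read counts were used, so depth and counting error are unknown. The members and gene lists were chosen with earlier results of these data known.

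From the deposited values, log2(FPKM + 1) was fitted with limma 3.58.1 in R 4.3.3, with population as the only term and a variance trend, on 11242 genes whose mean reached 1 FPKM in any population; p-values were adjusted over all of them in each of 7 comparisons. The steps were tested on simulated data. An exact permutation test of 3 against 3 libraries cannot go below 0.1. Named genes were the 2 most abundant of each complex, the 3 highest and 3 lowest by fold change in each comparison, paralogous isoforms, the 4 Sdh genes, and up to 3 highest and 3 lowest of each other list; the remaining members named were chosen after their values were seen. Results were recomputed with pseudocounts of 0.1 and 5, without the low-value filter or with one of 5 FPKM, with median-ratio scaling or quantile normalization, with only the 6 libraries of a comparison, with a block for the replicate number, without the variance trend, at folds of 1.2 and 2, and without each library in turn. Promoters are from RefSeq and gene positions from GENCODE, both on GRCm38, the assembly mm10 names. Python 3.11.15 and matplotlib 3.10.9 drew the figures.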

Additional observations from a re-analysis of the deposited data

How the results depend on the processing

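Counts of members called depended most on the minimum fold and on quantile normalization, and no direction reversed. In the order IL-2, cocktail CD44+CD62L-, CD44+CD62L+ and CD44loCD62L+ over naive cells, higher counts were 64, 29, 29 and 17 as reported, 40, 17, 20 and 10 with quantile normalization, and 35, 4, 6 and 1 at a fold of 2, with 1 lower gene in each. With quantile normalization 24.2%, 20.8%, 20.9% and 17.7% of all genes were higher. The members of the cocktail CD44+ populations were near these shares, and those of CD44loCD62L+ cells were below theirs. At a fold of 1.2 the cocktail counts were 62, 60 and 46 higher, with 4 lower in CD44loCD62L+ cells. For cocktail CD44+CD62L- over IL-2 cells, 23 lower and 2 higher became 11 lower and 3 higher with quantile normalization (9.80% and 10.7% of all genes), 2 lower and 1 higher at a fold of 2 and 56 lower at 1.2, and the higher count was 1 with a pseudocount of 5 or a filter of 5 FPKM, both of which act on low genes. For CD44+CD62L+ over CD44+CD62L- cells, 1 was higher with a pseudocount of 0.1 or a fold of 1.2. For CD44loCD62L+ over CD44+CD62L+ cells, 0 were higher with a pseudocount of 5 or a fold of 2, 1 was lower with a pseudocount of 0.1 or quantile normalization, and 4 were higher and 25 lower at a fold of 1.2. Without Cox4nb, Atp5s, Atp5sl and Cox7a2l, a set chosen after seeing the data, lower counts over naive cells were 0 in IL-2, 1 in cocktail CD44+CD62L- and 1 in CD44+CD62L+ cells, 1 gene was higher in cocktail than in IL-2 cells, and 0 were higher in CD44loCD62L+ than in CD44+CD62L+ cells. The cause of the shift under quantile normalization was not tested.

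Leaving out each library gave higher counts over naive cells of 63 to 64, 29 to 30, 29 to 30 and 17 to 19, and 21 to 23 lower in cocktail CD44+CD62L- than in IL-2 cells; between the CD44+ cocktail populations 0 to 1 was higher, and between CD44loCD62L+ and CD44+CD62L+ cells 0 to 2 were lower. Replicate numbers did not pair the samples, as correlations of deviations ran from -0.24 to 0.18, and with the replicate block the higher counts stayed at 64, 29, 29 and 17 with no call changed. Depth was unknown, so genes such as Cox6a2 and Cox7a1 near 1 FPKM carry counting error that could not be given.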
